A study of Mus musculus with 3 samples.

Results

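The genes described here are 10 components of pyroptosis, an inflammatory form of cell death. They were chosen by symbol from a list fixed by name, by a rule without measured values, but with earlier results of these data known. They are the sensors Nlrp3 and Nlrc4, the kinase Nek7, the adaptor Pycard, the caspases Casp1 and Casp4, the pore formers Gsdmd and Gsdme, the membrane rupture protein Ninj1 and the cytokine Il18. All 10 were among the 31253 genes of the count tables, and each had UMIs (unique molecular identifiers, here counted transcripts) in kept cells. Cells of mouse livers were sequenced singly in droplets, in 3 libraries. With 1 library for each group there is no replicate error, and differences between groups are given without a test or p-value. The library labelled FL_control came from a mouse line with floxed Gsdmd alleles and had no irradiation. The library labelled FL_IR carried the same floxed alleles and was taken 7 days after 30 Gy. The library labelled dHep_IR was taken at the same time after the same dose and carried a Gsdmd deletion that its title places in hepatocytes. The genotype tag reads WT for both floxed libraries and gsdmd-ko for dHep_IR, without naming hepatocytes. The Cre driver, the deleted exons, the part of the body exposed, the age and strain of the mice and whether animals were pooled are not given in the sources used here.

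In the canonical pathway a sensor such as NLRP3, licensed by the kinase NEK7, or NLRC4, which answers to bacterial flagellin and secretion systems through NAIP proteins, assembles an inflammasome. The adaptor ASC, encoded by Pycard, links it to caspase-1, while the product of mouse Casp4 binds bacterial lipopolysaccharide in the cytosol directly. These caspases cut gasdermin D, whose freed fragment forms pores in the plasma membrane, and NINJ1 then clusters to rupture the membrane. Caspase-1 also matures interleukin-18, and gasdermin E is cut by an apoptotic caspase instead. In the liver, Kupffer cells, the resident macrophages, and recruited neutrophils and monocytes are well known sites of inflammasome activity.

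After filtering, 6458, 6545 and 7261 cells were kept in FL_control, FL_IR and dHep_IR, with a median of 5838, 7409 and 7967 UMIs per cell. Cells were clustered and clusters were called X-like from fixed marker genes. Of the defining markers of the 10 classes used below, all or all but 1 were seen in at least 10 percent of cells in each library, apart from control neutrophil-like cells with 8 of 11. Classes with at least 50 cells in a library are described, which gave 10 classes in FL_control, 5 in FL_IR and 7 in dHep_IR. Most endothelial-like, neutrophil-like and Kupffer-like cells of FL_control lay in other clusters than those of the irradiated libraries, so library and cluster cannot be told apart there. In the monocyte-like class, all 256 cells of FL_control lay in cluster 10, while FL_IR had 27 cells there and 448 in cluster 28, and dHep_IR had 515 and 651. B-like cells numbered 1416 in FL_control but 21 and 11 in FL_IR and dHep_IR. The monocyte-like class holds dendritic cells, which at a finer clustering were 128 cells in FL_control, 3 in FL_IR and 66 in dHep_IR. Cluster 27, shallow endothelial cells, stayed unnamed with 8, 532 and 605 cells, and 146 kept cells had a barcode that another library also held. Free RNA was not removed. Hepatocyte-like cells numbered 104, 42 and 8, with 22, 2 and 1 UMIs of Gsdmd, too few to check the labelled deletion, and a 3' tag outside the deleted exons would not show it.

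The classes that held the most of the 10 genes were Kupffer-like, monocyte-like and neutrophil-like cells. A class was said to hold a gene where its level was at least 0.25 times that of the highest class in the same library, with at least 10 UMIs. The share of all genes that each class holds by this rule was not computed. The counts therefore have no background beside them and do not single out these genes. Kupffer-like cells held 8 of the 10 genes in FL_control, 8 in FL_IR and 9 in dHep_IR, covering 7, 6 and 7 of the 7 roles. Monocyte-like cells held 7, 8 and 8 genes and 6 roles in each library, with the dendritic cells of that class counted. With dendritic cells split off at the finer clustering, control monocyte-like cells also met the rule for Nlrp3 and Ninj1. Their order against control Kupffer-like cells therefore depends on the clustering. Neutrophil-like cells held 7, 6 and 6 genes and 5, 4 and 4 roles. With a share of 0.5 in place of 0.25, monocyte-like cells held 4 genes in FL_control and 4 in dHep_IR.

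The genes not held differed between the myeloid classes. Kupffer-like cells did not hold Gsdme in any library, and the same was true of monocyte-like cells. Kupffer-like cells also did not hold Nlrp3 in FL_control or Pycard in FL_IR. With dendritic cells counted, monocyte-like cells also did not hold Nlrp3 in FL_control, Ninj1 in FL_control and FL_IR, or Il18 in dHep_IR. The absences of Nlrp3 and Ninj1 in FL_control were not seen with dendritic cells split off, as given above. Control neutrophil-like cells did not hold Pycard, Nlrc4 or Il18. Neutrophil-like cells of FL_IR and dHep_IR held Pycard but not Ninj1 or Nek7, which control cells held, nor Nlrc4 or Il18. Endothelial-like cells held 4, 4 and 5 genes, which were Nek7, Casp1, Casp4 and Gsdmd in every library, joined by Ninj1 in dHep_IR. T-like cells held 3, 3 and 5 genes, and cholangiocyte-like cells, the lining of bile ducts, held 2 in FL_control and 4 in dHep_IR. This count depends on what stands highest, since the 0.25 share is taken from the highest class of each library, and those are not the same classes in number or kind across libraries.

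**Figure D1:**
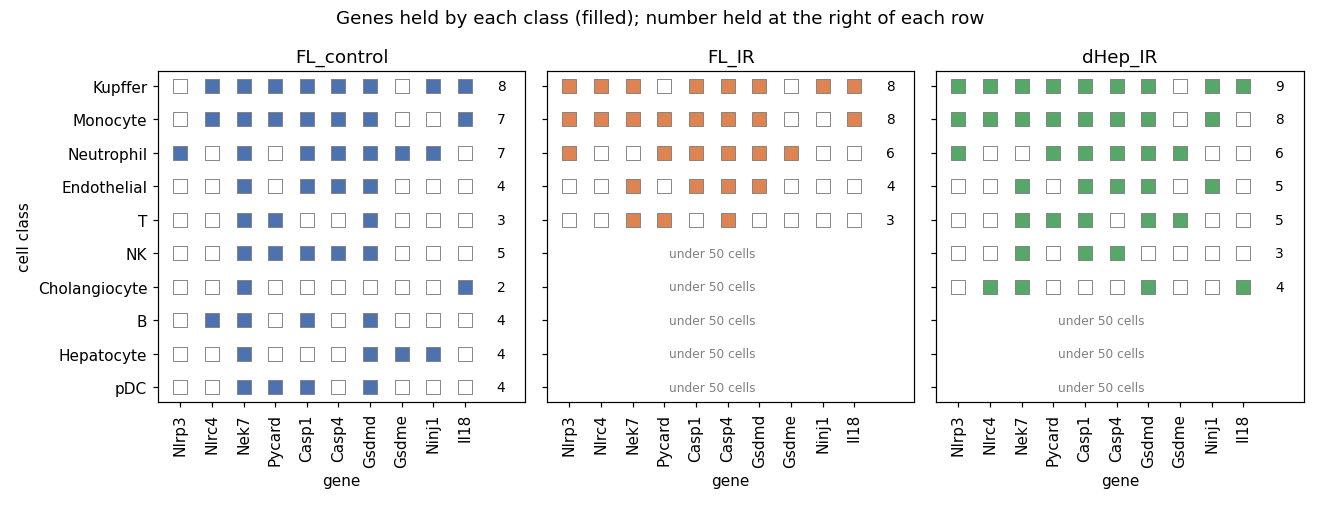
Genes held by each cell class in the 3 libraries, with genes as columns and cell classes as lines of squares. A filled square is a gene held by the class, and the number at the right is the count of the 10 genes, which was highest in Kupffer-like cells of dHep_IR at 9.

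Nlrp3, the sensor of membrane damage, potassium loss and crystals, lies on chromosome 11 (GRCm38, 59541568 to 59566956, + strand) and was mainly seen in the myeloid classes. In neutrophil-like cells of FL_control it had 753 UMIs per 1000000 UMIs of the class (CPM), against 126 in FL_IR and 91.4 in dHep_IR. In monocyte-like cells it was 135, 268 and 192 CPM, and in Kupffer-like cells 80.8, 109 and 149 CPM. With dendritic cells split off at the finer clustering, monocyte-like cells had 209, 270 and 197 CPM. The neutrophil level was thus the highest of the 10 classes in FL_control, and monocyte-like cells stood highest in both irradiated libraries. In the other classes described the Nlrp3 level did not pass 12.7 CPM, the value of control plasmacytoid dendritic (pDC)-like cells. Neutrophil-like cells of FL_IR had 5.98-fold less Nlrp3 than those of FL_control (5.59 to 6.38), and those of dHep_IR 8.24-fold less (7.69 to 8.83). All intervals are 95 percent intervals that cover counting error only. In cells thinned to 2000 UMIs, Nlrp3 was seen in 63.7 percent of control neutrophil-like cells, 23.2 percent in FL_IR and 17.8 percent in dHep_IR. Without thinning these shares were 76.7, 53.8 and 48.5 percent. In endothelial-like cells, where little Nlrp3 is made, the thinned shares were 0.519, 0.700 and 1.09 percent.

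Nlrc4, the sensor of the NAIP proteins, lies on chromosome 17 (74425438 to 74459142, - strand) and was sparse everywhere. Kupffer-like cells had 12.3, 19.8 and 13 CPM in FL_control, FL_IR and dHep_IR, and monocyte-like cells 7.07, 6.99 and 4.90. Control B-like cells, at 11.3 CPM, stood beside Kupffer-like cells with overlapping intervals, and cholangiocyte-like cells had 8.16 CPM in FL_control and 16.1 in dHep_IR. Neutrophil-like cells had 0.595, 0.240 and 0.559 CPM of Nlrc4, which rested on 1 to 14 UMIs. T-like cells of FL_control and FL_IR had 0 UMIs.

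Nek7 (chromosome 1, 138482875 to 138620141, - strand), whose product binds NLRP3 and also serves in mitosis, was held by every class of FL_control. Endothelial-like cells had 113, 91.8 and 91.6 CPM in FL_control, FL_IR and dHep_IR, and Kupffer-like cells 79.2, 76.8 and 58.4 CPM. Neutrophil-like cells stood lowest in each library, at 37.5, 22.5 and 18.8 CPM. The highest control class, pDC-like cells at 136 CPM, had an interval that overlapped that of endothelial-like cells. Nek7 passed a 2-fold difference in 1 class of 1 comparison only, monocyte-like cells of dHep_IR against FL_control (32.7 against 66.2 CPM, 2.02-fold lower, 1.70 to 2.40), and TMM factors brought that log2 ratio from -1.02 to -0.84. An antisense gene, Gm28501, overlaps Nek7 in the annotation and is also in the count tables.

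**Figure D2:**
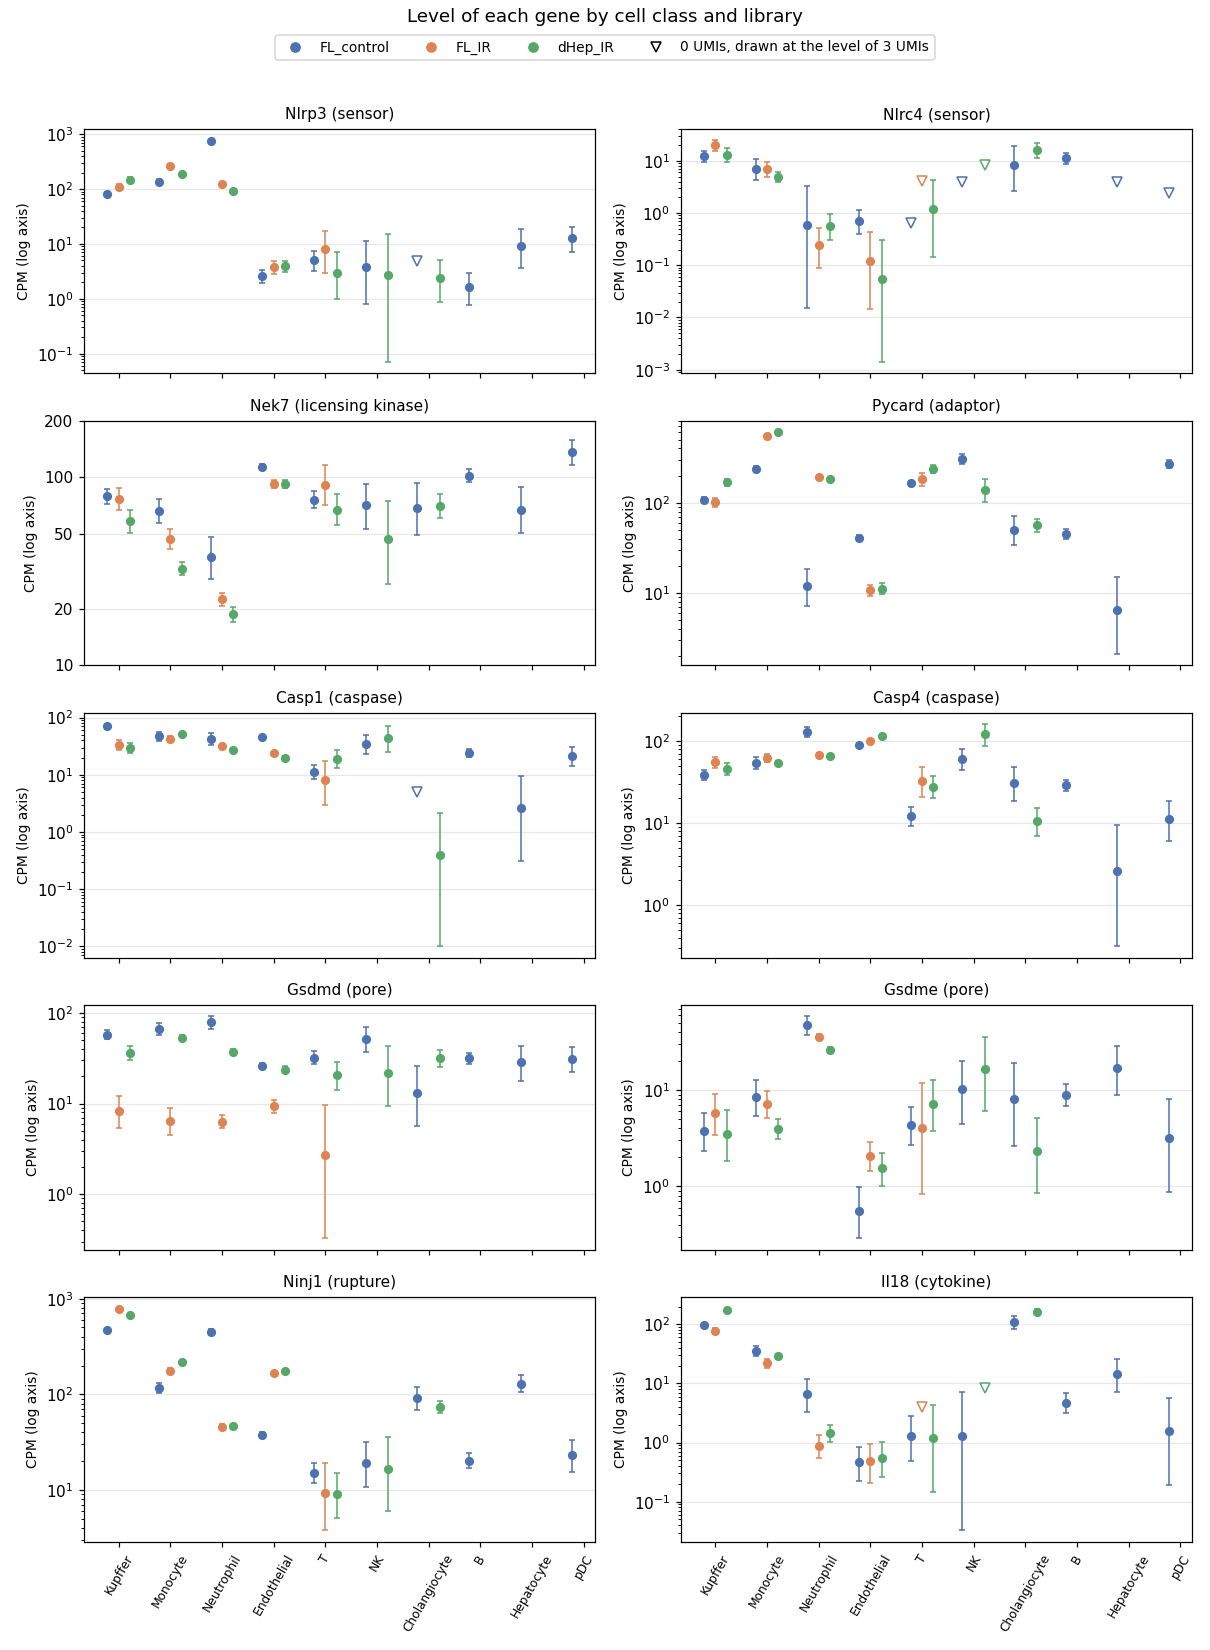
Level of each of the 10 genes by cell class, in CPM on a log axis, with 1 point per library, 95 percent Poisson intervals that cover counting error only, and open triangles at the level of 3 UMIs for classes with 0 UMIs. Pycard in neutrophil-like cells rises from 11.9 CPM in FL_control to 195 and 182 CPM in FL_IR and dHep_IR, and Gsdmd of FL_IR lies below both other libraries in the 5 classes shown for it.

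Pycard encodes ASC, the adaptor that joins sensor to caspase, and showed the largest ratio between libraries of the 10 genes, in any class. Neutrophil-like cells had 11.9 CPM in FL_control, from 20 UMIs, against 195 CPM in FL_IR and 182 CPM in dHep_IR. Neutrophil-like cells of FL_control thus stood far under both irradiated libraries, whose levels lay close together. The ratio was 16.4-fold (10.6 to 26.9) for FL_IR and 15.3-fold (9.87 to 25) for dHep_IR against FL_control. In cells thinned to 2000 UMIs, Pycard was seen in 2.25 percent of control neutrophil-like cells, 29.6 percent in FL_IR and 30.1 percent in dHep_IR, and without thinning in 3.92, 75.6 and 81.0 percent.

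Other classes did not move the same way. Monocyte-like cells had 235, 551 and 601 CPM of Pycard in FL_control, FL_IR and dHep_IR, a 2.34-fold (2.15 to 2.56) and a 2.56-fold (2.36 to 2.77) higher level in the irradiated libraries. Without dendritic cells the first of these log2 ratios was 0.97 in place of 1.23, just short of 2-fold. Pycard differed between the clusters of this class, at 235 CPM in cluster 10 of FL_control, 559 in cluster 28 of FL_IR, and 373 in cluster 10 and 756 in cluster 28 of dHep_IR. Neutrophil markers summed to 332, 8418 and 21872 CPM in monocyte-like cells, and their part in the Pycard levels was not tested. Endothelial-like cells went the other way, with 40.8, 10.7 and 11.2 CPM, 3.80-fold (3.23 to 4.5) and 3.64-fold (3.12 to 4.25) lower than in FL_control. Kupffer-like cells had 107, 101 and 168 CPM and T-like cells 164, 181 and 235 CPM, and none of these passed 2-fold. NK or ILC1-like cells had the highest control level, 308 CPM, with 268 CPM in pDC-like cells, and stood at 137 CPM in dHep_IR. Neutrophil markers such as S100a8 and S100a9 summed to 52.9, 1290 and 1370 CPM in endothelial-like cells. Kupffer markers there summed to 379, 179 and 163 CPM, B markers to 26.7, 1.70 and 1.48 CPM, and monocyte markers to 92.4, 87.3 and 158 CPM. The part of free RNA in the Pycard levels was not tested.

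The bases before a RefSeq start of 3 of the genes are shown because these 3 moved in opposite directions in neutrophil-like cells, Pycard up and Nlrp3 and Ninj1 down in the irradiated libraries. The sequences are RefSeq promoter entries of GRCm38.p6, 250 bases before the start, 5' to 3' on the strand of the gene. Capitals mark matches, on either strand, to GAGGAAGT, the core recognised by the myeloid factor PU.1, and to TTGCNNAA, a C/EBP motif. These 2 motifs were chosen after the expression values were seen. Pycard is shown at chr7:127993868-127994117 (- strand), Nlrp3 at chr11:59542436-59542685 (+ strand, the first listed of its 2 starts) and Ninj1 at chr13:49187279-49187528 (+ strand). The Nlrp3 stretch lies inside the span given above for the gene, and the Ninj1 stretch ends inside the span of that gene given below, since those spans take the outermost start in GENCODE.
Pycard: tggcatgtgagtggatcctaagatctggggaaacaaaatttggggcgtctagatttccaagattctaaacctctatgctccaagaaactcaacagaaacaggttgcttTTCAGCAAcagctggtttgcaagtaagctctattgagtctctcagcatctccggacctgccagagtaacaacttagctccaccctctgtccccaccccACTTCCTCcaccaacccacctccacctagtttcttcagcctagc
Nlrp3: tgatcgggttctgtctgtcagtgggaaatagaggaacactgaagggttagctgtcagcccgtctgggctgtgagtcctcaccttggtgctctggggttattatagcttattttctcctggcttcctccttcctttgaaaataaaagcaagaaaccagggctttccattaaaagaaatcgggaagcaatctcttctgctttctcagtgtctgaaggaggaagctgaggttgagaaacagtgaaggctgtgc
Ninj1: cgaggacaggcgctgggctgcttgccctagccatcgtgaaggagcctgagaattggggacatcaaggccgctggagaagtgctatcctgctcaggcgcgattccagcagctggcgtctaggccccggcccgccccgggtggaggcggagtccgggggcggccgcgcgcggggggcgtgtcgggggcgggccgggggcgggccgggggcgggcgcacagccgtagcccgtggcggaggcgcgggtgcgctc

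The Pycard sequence held 1 match to the PU.1 core, 44 to 37 bases before the start, and 1 to the C/EBP motif, 142 to 135 bases before it. Of all 32851 promoter entries, 2.44 percent held the PU.1 core and 9.56 percent the C/EBP motif. Among the 11 entries of the 9 genes that matched by symbol, the PU.1 core was found for Pycard and the C/EBP motif for Pycard and Nlrc4. The STAT motif TTCNNNGAA was found in 0 of the 11 and in 7.02 percent of all entries. The letters searched for the NF-kB and interferon-stimulated response motifs were also in 0 of the 11, against 1.21 and 2.98 percent of all entries. A match is a string of letters in a window of 250 bases and shows no binding.

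Casp1 and Casp4 are neighbours on chromosome 9 (5298517 to 5307265 and 5308828 to 5336783, both on the + strand), and their levels were arranged differently over the classes. Casp1, which cuts gasdermin D and matures interleukin-18, was highest in control Kupffer-like cells at 70.9 CPM, with 33.6 in FL_IR and 29.5 in dHep_IR. Kupffer-like cells of FL_control therefore stood above both irradiated libraries, by 2.11-fold (1.70 to 2.64) and 2.41-fold (1.93 to 3.03). With the stricter cell filter the log2 ratio for FL_IR was -0.99 in place of -1.07. Endothelial-like cells had 45.3, 23.8 and 19.4 CPM of Casp1, 2.34-fold lower (2.07 to 2.65) in dHep_IR than in FL_control. In the monocyte-like class, dendritic cells counted, Casp1 lay between 41.9 and 51.3 CPM. With dendritic cells split off at the finer clustering it had 65.2 CPM in FL_control (52.4 to 80.2). The values were then 42.0 in FL_IR (36.8 to 47.8) and 52.4 in dHep_IR (48.9 to 56.0). Cholangiocyte-like cells had 0 UMIs in FL_control and 0.392 CPM in dHep_IR.

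Casp4, whose product is the cytosolic lipopolysaccharide sensor of mouse cells, was highest in control neutrophil-like cells. There it had 130 CPM, against 67.9 for FL_IR and 65.6 for dHep_IR, differences of just under 2-fold. Endothelial-like cells had 89.4, 99.2 and 116 CPM of Casp4, close to one another while Casp1 of the same cells was lower in the irradiated libraries. T-like cells had 12.2, 32.2 and 27.7 CPM, 2.64-fold (1.57 to 4.33) and 2.27-fold (1.5 to 3.41) above FL_control. NK or ILC1-like cells had 60.5 CPM in FL_control and 121 in dHep_IR, the highest level of that library, with an interval that overlapped the 116 CPM of endothelial-like cells.

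Gsdmd, the executioner pore of the pathway (chromosome 15, 75862327 to 75867408, + strand), was measured in every class of 50 cells. In FL_control, neutrophil-like cells had 78.5 CPM, monocyte-like cells 66.9 and Kupffer-like cells 57.7. The intervals of neutrophil-like and monocyte-like cells overlapped. NK or ILC1-like cells had 51.5 CPM, T-like 32.0, B-like 31.6, pDC-like 31.0, hepatocyte-like 28.5, endothelial-like 26.1 and cholangiocyte-like cells 13.1. In dHep_IR the order was monocyte-like cells at 53.5 CPM, neutrophil-like at 37.2, Kupffer-like at 36.3, cholangiocyte-like at 31.8, endothelial-like at 23.7, NK or ILC1-like at 22 and T-like cells at 20.4. The library labelled FL_IR, although its labels name no deletion, had 9.34 CPM for endothelial-like cells, 8.32 for Kupffer-like, 6.45 for monocyte-like, 6.32 for neutrophil-like and 2.68 for T-like cells. Each of these 5 levels lay under those of both other libraries, so every direction in Gsdmd is one between libraries as labelled. Whether the labels of the 2 irradiated libraries are the right way round was not tested, and every value given for FL_IR or dHep_IR rests on them.

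The myeloid order of FL_control was not seen in FL_IR. Thinned to 2000 UMIs, Gsdmd was seen in 13.6 percent of control Kupffer-like cells, 11.3 percent of monocyte-like and 16.0 percent of neutrophil-like cells, against 4.8 percent of endothelial-like cells. In FL_IR the shares were 1.22, 1.27 and 1.46 percent, beside 1.85 percent in endothelial-like cells, and without thinning 5.09, 6.95, 6.53 and 5.83 percent. In dHep_IR they were 6.08, 9.08, 7.25 and 4.93 percent. In cholangiocyte-like cells Gsdmd stood at 31.8 CPM in dHep_IR against 13.1 in FL_control (2.43-fold higher, 1.18 to 5.82, with 8 UMIs in FL_control). Casp4 went the other way in that class, at 10.6 against 31.0 CPM (2.93-fold lower, 1.54 to 5.47), with a log2 ratio of -0.71 in place of -1.56 when CPM was averaged over cells.

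Gsdme (chromosome 6, 50188888 to 50263862, - strand), the pore former cut by an apoptotic caspase, was highest in neutrophil-like cells of each library, with an interval that overlapped that of NK or ILC1-like cells (16.5 CPM) in dHep_IR. Neutrophil-like cells had 47.6, 35.9 and 26.2 CPM in FL_control, FL_IR and dHep_IR and held 30.3, 88.0 and 81.9 percent of the Gsdme UMIs of their library. They were 7.11, 35.8 and 25.5 percent of kept cells. Control hepatocyte-like cells came second at 16.8 CPM, from 13 UMIs. Endothelial-like cells stood lowest in each library, at 0.557, 2.06 and 1.53 CPM. Their 3.70-fold higher level in FL_IR (1.87 to 7.85) rested on 34 against 12 UMIs, and with CPM taken cell by cell and averaged, the log2 ratio was 0.40 in place of 1.85. Gsdme overlaps Mpp6 on the other strand.

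Ninj1 (chromosome 13, 49187485 to 49196244, + strand), which ruptures the membrane after the pore has formed, was highest in Kupffer-like cells of all 3 libraries and differed in opposite directions in endothelial-like and neutrophil-like cells. Kupffer-like cells had 466, 771 and 671 CPM in FL_control, FL_IR and dHep_IR. Neutrophil-like cells had 445, 45.9 and 46.3 CPM, 9.70-fold (8.84 to 10.6) and 9.62-fold (8.77 to 10.6) lower than in FL_control. In FL_control the intervals of Kupffer-like and neutrophil-like cells overlapped, while in the irradiated libraries neutrophil-like cells stood far under Kupffer-like cells. Endothelial-like cells had 37.4, 166 and 174 CPM, 4.44-fold (4.10 to 4.81) and 4.66-fold (4.31 to 5.04) higher than in FL_control. Monocyte-like cells had 116, 175 and 218 CPM. With dendritic cells split off at the finer clustering, they had 197, 176 and 228 CPM. Thinned to 2000 UMIs, Ninj1 was seen in 7.13 percent of control endothelial-like cells, 26.4 percent in FL_IR and 27.4 percent in dHep_IR, and without thinning in 25, 58.2 and 56.9 percent. T-like cells had 9.02 to 15 CPM and stood lowest in each library.

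Il18 (chromosome 9, 50554827 to 50581840, + strand), a cytokine that drives interferon gamma from lymphocytes, was shared by Kupffer-like and cholangiocyte-like cells. Kupffer-like cells had 97.1, 77.4 and 176 CPM in FL_control, FL_IR and dHep_IR, and cholangiocyte-like cells 108 CPM in FL_control and 162 CPM in dHep_IR. Between these classes the intervals overlapped in both of those libraries. Il18 of Kupffer-like cells was 2.27-fold higher (1.95 to 2.65) in dHep_IR than in FL_IR. Monocyte-like cells had 35.7, 21.9 and 28.7 CPM, and endothelial-like cells 0.465, 0.485 and 0.548 CPM. Cholangiocyte-like cells, 86 of the 7261 kept cells of dHep_IR, held 25.8 percent of that library's Il18 UMIs. Il18 overlaps Bco2 and Tex12 on the other strand.

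Against FL_control, the library labelled FL_IR had 5 of 45 measured gene and class pairs more than 2-fold higher and 10 more than 2-fold lower, where a pair was measured with at least 20 UMIs over both libraries. Over all genes in the same 5 classes, 7.31 percent of pairs were called higher and 17.0 percent lower. Gsdmd gave 5 of the 10 lower pairs, and without it the counts were 5 higher and 5 lower of 40. The directions are therefore given gene by gene above and not as a change of the group. For dHep_IR against FL_IR, 8 of 44 pairs were higher and 0 lower, beside 4.46 and 3.64 percent of all pairs. Gsdmd gave 5 of the 8, and Il18 in Kupffer-like cells was another. The other two, Casp1 in T-like cells (2.39-fold, 0.986 to 7.00) and Nlrc4 in neutrophil-like cells (2.33-fold, 0.841 to 7.40), had intervals that included 1. Without Gsdmd, 3 of 39 pairs were higher and 0 lower. For dHep_IR against FL_control, 6 of 59 pairs over 7 classes were higher and 12 lower, beside 6.69 and 18.3 percent of all pairs. The 3 comparisons share libraries, so they are not independent of one another.

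In neutrophil-like cells the median log2 ratio of all genes was itself -0.58 for FL_IR and -0.65 for dHep_IR against FL_control, and TMM factors moved every ratio there by 0.64 and 0.74. With them Nlrp3 and Ninj1 remained more than 2-fold lower in both irradiated libraries, while Gsdmd of dHep_IR against FL_control went from -1.08 to -0.35.

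**Figure D3:**
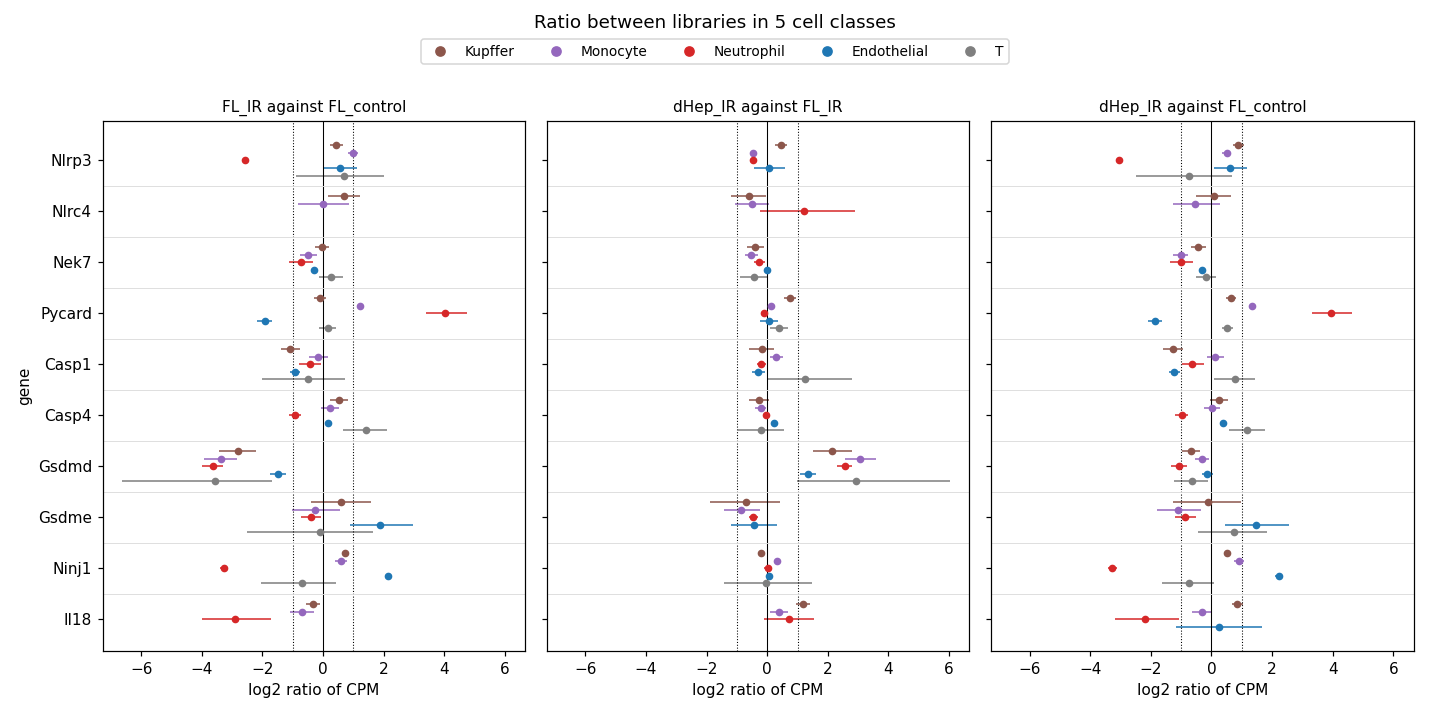
Log2 ratio of CPM between libraries for the 10 genes in 5 cell classes, with 95 percent intervals that cover counting error only and dotted lines at 2-fold. Gsdmd lies left of the line in each class for FL_IR against FL_control and right of it in each class for dHep_IR against FL_IR, FL_IR being the lower library in both, and Pycard and Ninj1 move in opposite directions between endothelial-like and neutrophil-like cells in both comparisons with FL_control.

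Neutrophil-like cells were not uniform, and several of the genes differed between clusters with little and much granule RNA. Clusters are ordered here by Camp, a granule protein gene of immature neutrophils, which had 0 UMIs in control cluster 4 and, in FL_IR, 33.8 CPM in cluster 29, 503 in cluster 25 and 6956 in cluster 26. Nlrp3 had 758 CPM in control cluster 4 and 362, 127 and 39.9 CPM in those clusters of FL_IR, with 375, 126 and 32.7 CPM in the same clusters of dHep_IR. Ninj1 had 451 CPM in control cluster 4, then 116, 45.6 and 21.3 CPM in FL_IR and 224, 48.1 and 15.7 CPM in dHep_IR. Both genes therefore fell from the cluster with least Camp to the cluster with most, in each irradiated library. Casp4 had 130 CPM in control cluster 4 and 128 and 139 CPM in cluster 29 of FL_IR and dHep_IR, against 49.0 and 47.5 CPM in cluster 26. Thus the level of Casp4 in the granule-poor irradiated cells lay beside that of the control cells, while Nlrp3 and Ninj1 there were still lower.

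Pycard did not follow this order. It had 10.8 CPM in control cluster 4, and 146, 210 and 192 CPM in clusters 29, 25 and 26 of FL_IR and 224, 220 and 162 CPM in dHep_IR. Every irradiated cluster stood at least as high as 146 CPM, whatever its Camp level. Gsdmd of FL_IR was low in each of its clusters, at 8.14, 7.39 and 4.22 CPM, against 57.8, 40.8 and 32.7 CPM in dHep_IR. The clusters were formed from the same counts, so these levels are descriptions.

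**Figure D4:**
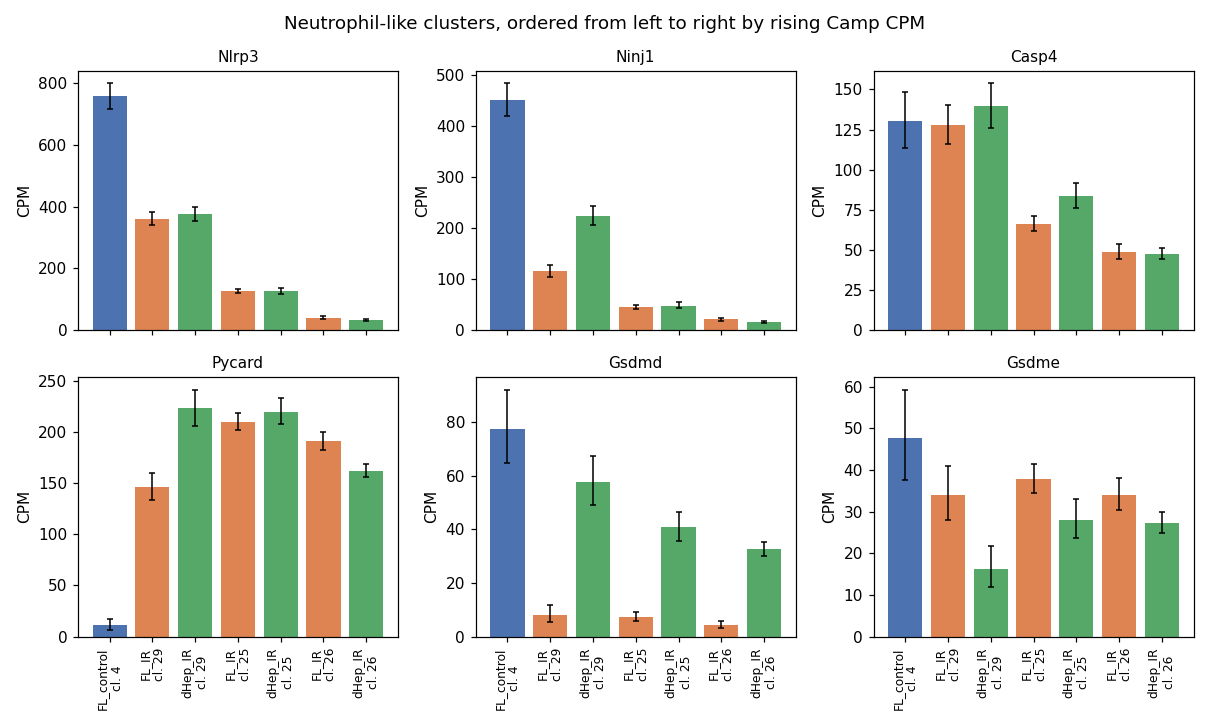
Level in CPM of 6 of the genes in neutrophil-like clusters of at least 50 cells, ordered from left to right by rising Camp, with 95 percent Poisson intervals that cover counting error only. Nlrp3 falls from 758 CPM at the left to 32.7 CPM at the right, and Pycard rises from 10.8 CPM to 146 CPM or more in every irradiated cluster.

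At a depth of 2000 UMIs, few cells showed a caspase, Pycard, Gsdmd and Ninj1 at once. The sensors and Nek7 were not part of this score. Each cell was thinned to 2000 UMIs and scored for a UMI of a caspase (Casp1 or Casp4), of Pycard, of Gsdmd and of Ninj1. Over the classes described, 4 of 17971 cells had all 4 roles, which were 2 monocyte-like and 1 neutrophil-like cell of dHep_IR and 1 control Kupffer-like cell. At least 3 roles were seen in 6.66 percent of monocyte-like cells of dHep_IR (5.29 to 8.25, exact Clopper-Pearson), 2.97 percent in FL_IR (1.63 to 4.94) and 3.90 percent in FL_control (1.8 to 7.27). For Kupffer-like cells these shares were 3.38, 1.83 and 3.45 percent, and for neutrophil-like cells 1.74, 0.601 and 3.15 percent. In endothelial-like cells they were 0.580, 0.124 and 0.130 percent. The low Gsdmd of FL_IR enters each of its shares. With 4000 UMIs per cell, 69 of 15459 cells had all 4 roles, 30 of them monocyte-like cells of dHep_IR. Without thinning, 32.1 percent of those 1166 cells and 20.9 percent of the 551 control Kupffer-like cells had all 4, at a median of 14609 and 9636 UMIs. Over all cells scored, the share with all 4 was larger at each greater depth, but classes did not rank by depth: monocyte-like cells of FL_IR, with a median of 11581 UMIs and low Gsdmd, had 4.0 percent.

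**Figure D5:**
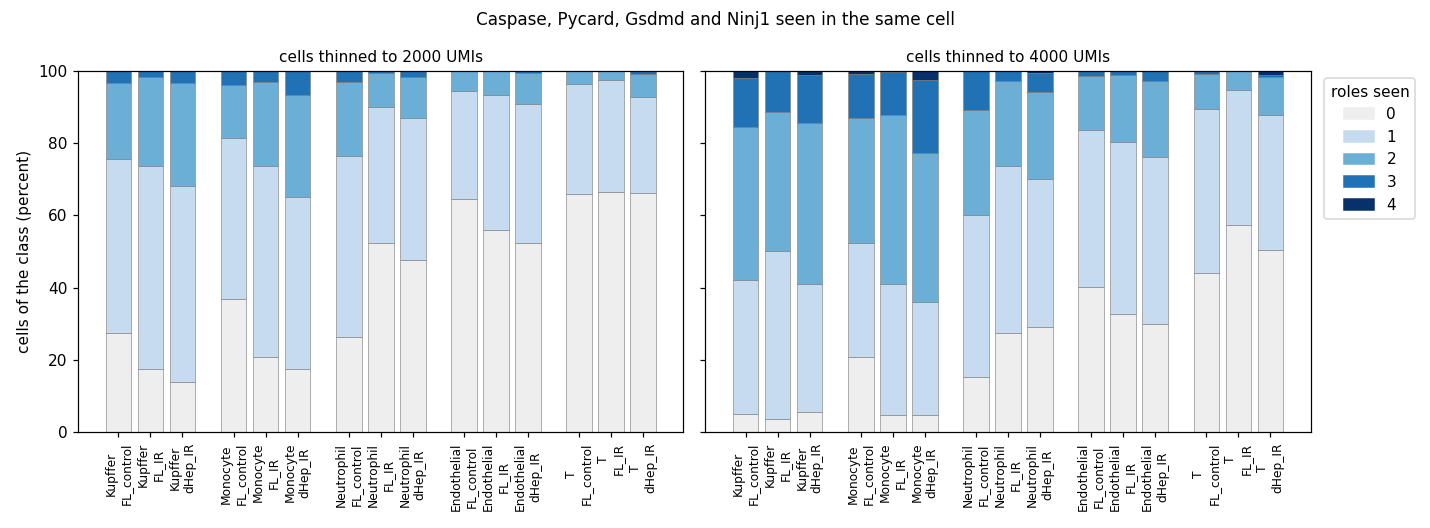
Share of cells, in percent of the class, by the number of 4 roles (a caspase, Pycard, Gsdmd and Ninj1) seen in the same cell, after thinning to 2000 UMIs (left) and 4000 UMIs (right). Monocyte-like cells of dHep_IR have the largest share with at least 3 roles, 6.66 percent at 2000 UMIs and 22.8 percent at 4000 UMIs.

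Across the 22 pairs of class and library, the 10 genes did not follow a common pattern. The closest pair was Nlrc4 and Il18, with a Pearson r of 0.87 over log2(CPM + 1), followed by Ninj1 and Il18 at 0.68. Casp1 and Casp4 were at 0.61, as were Nlrp3 and Ninj1. Gsdme and Nek7 ran opposite ways at -0.71, and Gsdmd did not pass 0.23 with any other of the 10. These values describe points that share libraries and, within a library, depth and free RNA.

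Among 12441 genes with at least 200 UMIs, the closest to Nlrp3 were Pstpip2 (0.95), Il1b, the interleukin-1 beta gene (0.95), and Ccl6 (0.95). The closest to Ninj1 was the ferritin light chain gene Ftl1 (0.93), whose reads can be shared with its pseudogene Ftl1-ps1, itself second at 0.92. Casp1 was closest to Msn (0.91), which encodes moesin, Casp4 to N4bp1 (0.86), Pycard to Abracl (0.90), Nek7 to Shprh (0.94), Nlrc4 to Myof (0.89), Il18 to Itgb5 (0.90) and Gsdme to Msra (0.80). For Gsdmd the closest was Tomm6 at only 0.63, followed by the MHC class II genes H2-Eb1 (0.61), H2-Aa (0.60) and H2-Ab1 (0.59) and by Amz1 (0.57). Over all kept cells of FL_control, FL_IR and dHep_IR, H2-Aa had 1165, 26.0 and 323 CPM, and Gsdmd had 36.4, 7.21 and 36.9 CPM. Both stood lowest in FL_IR. B-like cells, nearly all of them in FL_control, gave 26887 of the 56291 H2-Aa UMIs of that library. In the monocyte-like class H2-Aa had 4059.8, 90.9 and 1124 CPM. That class included 128, 3 and 66 dendritic cells, a cluster with H2-Aa among its leading genes. Their part in these levels was not tested.

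Of 49 other inflammasome and pyroptosis genes, 17 of 179 measured pairs were more than 2-fold higher and 33 lower in FL_IR than in FL_control, beside the background of 7.31 and 17.0 percent. Among the lower ones were guanylate-binding proteins, interferon-induced GTPases that expose cytosolic lipopolysaccharide to the Casp4 product. Gbp3 was 11.1-fold lower (8.70 to 14.4) in endothelial-like, 6.17-fold (4.83 to 8) in Kupffer-like and 54.8-fold (26.1 to 138) in monocyte-like cells, and Gbp5 was 37.2-fold lower (15.7 to 97.6) in neutrophil-like cells, from 8 against 20 UMIs. Higher were Cd14, the lipopolysaccharide co-receptor, in endothelial-like cells (135 against 6.09 CPM, 22.2-fold, 18.6 to 26.7) and Mefv, the pyrin inflammasome sensor, in Kupffer-like cells (57.6 against 10.5 CPM, 5.50-fold, 4.07 to 7.53). Serpinb1a, an inhibitor of neutrophil proteases, was 37.3-fold higher (22.6 to 66.7) in neutrophil-like cells, at 333 against 8.92 CPM.

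For dHep_IR against FL_IR, 21 of 176 pairs of these genes were higher and 3 lower, beside 4.46 and 3.64 percent of all pairs. Gbp3 was 25.8-fold higher (12.4 to 64.5) in monocyte-like cells, and Gbp5 7.87-fold (3.76 to 19.0) in neutrophil-like cells. In Kupffer-like cells, where Il18 was higher, the cytokines Il1b (536 against 145 CPM, 3.70-fold, 3.33 to 4.11) and Il1a (534 against 201 CPM, 2.66-fold, 2.42 to 2.91) were higher as well. Elane, the neutrophil elastase gene, had 158 UMIs in monocyte-like cells of dHep_IR and 0 in those of FL_IR. Neutrophil markers summed to 21872 CPM in monocyte-like cells of dHep_IR against 8418 in FL_IR, and their part in the Elane level was not tested. In endothelial-like cells 0 of 35 such genes passed 2-fold in either direction. Of all 12049 genes measured in that class, only 1.57 percent were higher and 2.20 percent lower, so 0 of 35 lies near that background.

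For dHep_IR against FL_control, 19 of 233 pairs were higher and 35 lower, beside 6.69 and 18.3 percent of all pairs. Serpinb1a in neutrophil-like cells stood at 603 against 8.92 CPM (67.5-fold higher, 40.9 to 121), and Il1b there at 610 against 6264 CPM (10.3-fold lower, 10 to 10.5). Mefv in Kupffer-like cells was 8.59-fold higher (6.47 to 11.6), and Nlrp6, an epithelial sensor, was 5.04-fold lower (3.55 to 7.17) in cholangiocyte-like cells, at 24.3 against 122 CPM.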

How the data were processed

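Liver cells of 3 mouse libraries, 1 per group, were measured by 10x Genomics 3' sequencing, per the labels. Raw UMI counts for each gene and barcode were deposited. Cell Ranger 6.1.1, mm10, CASAVA 1.8 and Seurat 4.0.3 stand in the submitters' processing notes, and no source used here names the annotation release. The libraries held 52858425, 59228905 and 78694038 UMIs over 7393, 7265 and 8214 barcodes (FL_control, FL_IR, dHep_IR), and single cells are shallow, so most values rest on class sums. Gene positions are from GENCODE on GRCm38, and promoters from RefSeq on GRCm38.p6, which gave an entry for 9 of the 10 genes by symbol.

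Cells with at least 500 UMIs, 250 genes and at most 25 percent mitochondrial UMIs were kept. Scrublet (scanpy 1.11.5, expected doublet share 6 percent) then removed 160, 235 and 291 doublets. Cells were clustered with 2000 variable genes, 30 components, 15 neighbours and the Leiden method at resolution 1 (igraph 0.11.9), without batch integration, giving clusters numbered from 0. Fixed markers named the clusters, by a score whose details were chosen with the clusters in view. UMIs were added up for each class of a library and given as CPM of the class total, with exact Poisson, Clopper-Pearson and conditional intervals at 95 percent. Log2 ratios had a prior count of 0.5. The named genes are the 10 components, the 2 other pathway genes with the largest ratio per class and comparison, and for each component the 3 most similar genes (5 for Gsdmd). The genes and lists were chosen with earlier results of these data known. Ratios and intervals were tested on simulated data. TMM factors came from edgeR 4.0.16 and size factors from DESeq2 1.42.0, used for scaling alone, and the other alternatives changed cell filters, clustering, thresholds and thinning.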

Additional observations from a re-analysis of the deposited data

Results flagged for a closer look

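Several of the 10 genes were more than 2-fold higher in 1 cell class and more than 2-fold lower in another under the same contrast. In each case the difference between the classes was not tested, since each group is 1 library. For FL_IR against FL_control, Pycard had a log2 ratio of 4.0 in neutrophil-like and 1.23 in monocyte-like cells but of -1.92 in endothelial-like cells, and Ninj1 had 2.15 in endothelial-like but -3.28 in neutrophil-like cells.

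For dHep_IR against FL_control the same split returned, with Pycard at 3.90 in neutrophil-like and 1.35 in monocyte-like cells but at -1.86 in endothelial-like and -1.15 in NK or ILC1-like cells. Ninj1 was at 2.22 in endothelial-like and -3.27 in neutrophil-like cells. Gsdmd was at 1.20 in cholangiocyte-like cells, -1.16 in NK or ILC1-like and -1.08 in neutrophil-like cells. The NK or ILC1-like value fell short of 2-fold in 5 of 10 alternatives, the smallest being -0.72, and the neutrophil-like value was -0.35 with TMM and -0.38 with DESeq2 factors. Casp4 was at 1.18 in T-like and -1.56 in cholangiocyte-like cells, and Gsdme at 1.43 in endothelial-like and -1.13 in monocyte-like cells. Casp4 in cholangiocyte-like cells was -0.71 when CPM was averaged over cells. Gsdme in endothelial-like cells was 0.46 with doublets kept and -0.31 when CPM was averaged over cells, and in monocyte-like cells it fell short of 2-fold in 5 of 10 alternatives, the smallest being -0.82. Pycard in NK or ILC1-like cells also fell short, at -0.82 with doublets kept and -0.87 with TMM factors. For Gsdmd and Casp4, whether both classes passed 2-fold therefore depends on these settings, while the sign in each class stayed the same. For Gsdme the sign in endothelial-like cells turned as well. Both comparisons use FL_control, so their agreement is no independent support.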

How the results depend on the processing

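Of the 41 gene and class pairs past 2-fold, 30 stayed past it in the same direction under each other cell set, clustering and scaling tried. Those 30 are 12 of 15 for FL_IR against FL_control, 7 of 8 for dHep_IR against FL_IR and 11 of 18 for dHep_IR against FL_control. One direction turned: Gsdme in endothelial-like cells of dHep_IR against FL_control was -0.31 in place of 1.43 when CPM was averaged over cells. For FL_IR against FL_control, 3 pairs were higher with a minimum of 100 UMIs and 11 at 1.5-fold, in place of 5. For dHep_IR against FL_IR, 5 pairs were higher with a minimum of 100 UMIs in place of 8, and lower pairs numbered 3 with CPM averaged over cells, 4 with no UMI minimum and 3 at 1.5-fold, in place of 0. For dHep_IR against FL_control, TMM and DESeq2 factors each gave 11 higher and 7 lower pairs, and 1.5-fold gave 16 and 21, in place of 6 and 12. Why these counts moved was not tested, beyond the change of threshold itself. Alternatives without shared barcodes, without dendritic cells or with cluster 27 counted as endothelial-like were chosen after seeing the data and left each count within 1.5 times. With 0.5 of the highest class in place of 0.25, the genes held in FL_control were 2 in B-like, 0 in hepatocyte-like, 4 in monocyte-like, 3 in NK or ILC1-like and 2 in pDC-like cells. In FL_IR T-like cells then held 1, and in dHep_IR endothelial-like cells held 2, monocyte-like 4 and T-like 1. Cells with all 4 roles were 0.0223 percent at 2000 UMIs, 0.00541 at 1000, 0.446 at 4000 and 4.76 without thinning. No paired analysis was possible because each group is 1 library. No replicate could be left out for the same reason.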

Other observations

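Cluster 16, 79 cells of FL_control with a median of 17473 UMIs, stayed unnamed although Kupffer markers came closest. It had 533 CPM of Pycard, above the 107 CPM of Kupffer-like cells of the same library, and 202 CPM of Nlrp3 beside their 80.8. Ninj1 stood at 390 CPM against 466, and Il18 at 20.7 against 97.1 CPM. Of the irradiated libraries, 0 cells of FL_IR and 1 of dHep_IR fell in this cluster.

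In monocyte-like cells of dHep_IR, cluster 28 had 756 CPM of Pycard and 14531 CPM of S100a9, and cluster 10 had 373 and 1106 CPM. Ninj1 ran the other way, at 173 CPM in cluster 28 and 283 in cluster 10, as did Gsdmd, at 43.3 and 68.4 CPM.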
